A study of Mus musculus with 12 samples.

Results

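Complement is a system of plasma and cell-surface proteins that marks cells and debris for removal. Its classical and lectin routes start with serine proteases that cut *C4* and *C2* products, all routes meet at *C3*, and soluble and membrane-bound regulators hold the cascade back on healthy cells. Liver makes most complement of the blood, and macrophages, fibroblasts and vascular cells make some locally. The 8 genes described here are *Masp1*, *C1ra*, *C1s1*, *C4b*, *C3*, *Serping1*, *Cd55* and *Cd59a*, taken by gene name out of 55487 gene identifiers in the count table. Beside them stand 46 other complement genes, so that 54 genes of the pathway were read.

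The data are RNA-seq counts of whole lenses of mice on the B6J background, taken at P7 (7 days of age). There were 12 libraries, with 3 for each of the 4 genotypes. *Trpm3*-I/M mice carry 1 and *Trpm3*-M/M mice 2 knock-in copies of a *Trpm3* allele made by CRISPR/Cas9 editing that replaces an isoleucine of this calcium-permeable channel by methionine. *Trpm3*-KO mice carry a targeted allele with an inserted reporter cassette, made by homologous recombination, and wild-type mice carry neither. Each library is described as RNA pooled from 4 male and 4 female lenses, and nothing else is known of how the pools relate, so each p-value measures only the spread between such pools. The total count ran from 56162182 to 82090262 per library.

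A few facts of the libraries bear on the values below. Levels are given as CPM, a gene's share of the library total in counts-per-million units, with totals scaled by TMM factors. *Trpm3* itself reached 268.5 ± 17.3 CPM (SD, n = 3) in wild-type and 95.3 ± 5.01 CPM in *Trpm3*-KO, where transcripts of the targeted allele are counted with the gene. In *Trpm3*-I/M replicate 3, *Xist* (a transcript of the inactive X chromosome) had 0.0722 CPM against 45.8 to 304.9 CPM in the other 11 libraries. That library also had the highest levels of the Y-linked genes *Ddx3y* and *Eif2s3y*, which goes against a pool of both sexes, so the log2 fold changes of *Trpm3*-I/M for single genes of the 8 are also given without it, apart from those that rest on single counts. The 12 lens fiber markers were abundant throughout, but summed to 30885 to 33255 CPM in wild-type and 16323 to 18714 CPM in *Trpm3*-M/M.

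Marker genes of other cell types moved with genotype. The 12 macrophage markers summed to 0.738 to 1.04 CPM in wild-type libraries and 0.759 to 0.860 in those of *Trpm3*-KO, then 1.52 to 1.78 in *Trpm3*-I/M libraries and 10.7 to 20.3 in those of *Trpm3*-M/M. In wild-type *Ptprc*, the pan-leukocyte CD45 gene, was at 0 in all 3 libraries. The 12 pericyte and fibroblast markers summed to 160.3 to 169.3 CPM in wild-type and 314.5 to 452.0 in *Trpm3*-M/M, and the 12 vascular endothelium markers to 14.2 to 16.9 and 81.6 to 91.9. The most abundant genes of the pericyte and fibroblast list moved apart in *Trpm3*-M/M. Mean *Acta2* went from 68.3 CPM in wild-type to 211.6 in *Trpm3*-M/M, and *Pdgfra* from 79.4 to 38.97. Lists of tissue next to the lens went both ways there. Ciliary non-pigmented epithelium markers summed to 52.9 to 54.5 CPM in wild-type and 31.2 to 38.0 in *Trpm3*-M/M. Those of pigmented cells summed to 6.20 to 6.82 and 3.76 to 4.19 CPM. Abundant genes led both falls, with mean *Car14* going from 31.6 to 14.1 CPM, *Slc4a4* from 15.4 to 7.27 and *Oca2* from 3.01 to 0.0577. Yet 5 of 11 ciliary and 2 of 5 pigmented genes tested at the lower filter given below were called higher in *Trpm3*-M/M, beside 12.4% of all genes. Of those 5, 3 passed that filter only through *Trpm3*-M/M. The lists of photoreceptors, other neural retina and cornea were higher. Photoreceptor markers summed to 2.19 to 2.78 CPM in wild-type and 16.9 to 24.5 in *Trpm3*-M/M, where the cone gene *Arr3* had 10.7, 18.8 and 19.9 CPM. Markers of other neural retina summed to 10.8 to 12.4 and 29.0 to 29.4 CPM, and those of cornea to 0.806 to 1.27 and 4.15 to 8.88 CPM. Genes within these lists did not all rise. Between the means of wild-type and *Trpm3*-M/M, the neural retina gene *Glul* went from 7.28 to 21.3 CPM and *Elavl4* from 2.17 to 0.513. In the cornea list *Aldh3a1* went from 0.302 to 4.32 CPM and *Upk1b* from 0.290 to 0.234. The photoreceptor gene *Rom1* had 1.56 and 1.54 CPM. The part of these cells in any result below was not tested, and in whole-lens RNA more cells of a type and more RNA per cell cannot be told apart.

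The sequences just upstream of *C3*, *Cd55* and *Cd59a* are shown because *C3* and *Cd55* were called higher in *Trpm3*-M/M and *Cd59a* was, of the 5 genes with an entry, the one whose upstream sequence held a searched motif. Each is the 250 bases before the start of the gene in RefSeq (GRCm38.p6), read 5′ to 3′ on the strand of the gene, with the motif match in capitals. They lie at chr17:57228137-57228386 on the reverse strand for *C3*, chr1:130462745-130462994 on the reverse strand for *Cd55* and chr2:104095551-104095800 on the forward strand for *Cd59a*.
C3: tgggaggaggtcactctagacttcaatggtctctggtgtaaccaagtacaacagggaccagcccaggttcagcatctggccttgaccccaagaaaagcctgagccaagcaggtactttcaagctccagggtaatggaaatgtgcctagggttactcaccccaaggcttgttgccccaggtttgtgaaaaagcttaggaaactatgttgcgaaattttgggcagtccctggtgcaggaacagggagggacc
Cd55: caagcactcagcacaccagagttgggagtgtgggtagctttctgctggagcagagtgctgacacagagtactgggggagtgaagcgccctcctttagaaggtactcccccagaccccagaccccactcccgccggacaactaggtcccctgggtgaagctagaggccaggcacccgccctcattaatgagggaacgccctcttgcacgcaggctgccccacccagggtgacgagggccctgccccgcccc
Cd59a: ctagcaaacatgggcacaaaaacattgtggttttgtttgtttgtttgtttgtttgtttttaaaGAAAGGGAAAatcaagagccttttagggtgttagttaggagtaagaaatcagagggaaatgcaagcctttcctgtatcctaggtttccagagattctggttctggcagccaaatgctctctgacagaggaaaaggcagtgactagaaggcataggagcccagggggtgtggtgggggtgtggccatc

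The motifs searched, on both strands and over 250 bases before and 50 after the start, were GAS (TTCNNNGAA, read by STAT factors), ISRE (GAAA, any 2 bases, then GAAA again, read by interferon-activated factors) and AP-1 (TGANTCA), and 5 of the 8 genes had an entry. *Cd59a* held an ISRE match that begins at position -187 from the start, and 3.44% of all 32851 promoters held such a match. *C1ra* held a GAS match, TTCCCTGAA, at position 32 after its start, and 8.3% of all promoters held one. *C3*, *Cd55* and *C1s1* held none of the 3 motifs in this window, and AP-1 letters stood in 7.81% of all promoters. These matches describe letters only.

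How many of the 8 genes could be tested depended on their level. The first test took the genes with a CPM of at least 5 in at least 3 libraries, 8984 in all. *Masp1*, *Serping1* and *Cd59a* passed, *Masp1* only through *Trpm3*-I/M and *Trpm3*-M/M and *Serping1* only through *Trpm3*-M/M. Passing in this way favours genes that differ, though it does not fix a call. All 8 passed a lower filter of at least 10 counts in at least 3 libraries, chosen after the values were seen, which kept 16789 genes. *C3* and *C4b* passed it only through *Trpm3*-M/M. A gene was called at a fold change of at least 2 and an adjusted p of at most 0.05 under the quasi-likelihood test of edgeR, with the Benjamini-Hochberg adjustment made over all genes of the filter.

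Against wild-type, *Trpm3*-M/M lenses had higher *Masp1*, *C3*, *C4b*, *Serping1* and *Cd55*, by 2.21-fold for *Cd55* to 409-fold for *Masp1*. *Trpm3*-I/M lenses had higher *Masp1* and no other called change, and *Trpm3*-KO lenses had none. In *Trpm3*-M/M, 2 of the 3 genes past the CPM filter were called where 8.95% of all genes were, and 5 of 8 at the lower filter where 17% of all genes were. Because *Masp1*, *Serping1*, *C3* and *C4b* passed a filter only through groups in which they were high, these counts are a description and no excess is read from them. Of the 6 genes that reached 10 counts in 3 libraries without *Trpm3*-M/M, 3 were called (*Masp1*, *Serping1* and *Cd55*). *Masp1* did so only through *Trpm3*-I/M, in which it was high. The share of all genes called under this limit was not computed, so this count too is a description. In *Trpm3*-I/M, 1 of 3 was called where 3.33% of all genes were, and 1 of 8 where 6.22% were. In *Trpm3*-KO, edgeR called 0 of 3 where 0.568% were called and 0 of 8 where 1.02% were. DESeq2 also called 0 of 3 there. With edgeR at the lower filter, 1 of 8 (*C1s1*) had an unadjusted p below 0.05 in *Trpm3*-KO. Without a fold change threshold, an adjusted p of at most 0.05 was reached at the CPM filter by 2 of 3 genes in *Trpm3*-M/M, 2 of 3 in the heterozygotes and 0 of 3 in *Trpm3*-KO, beside 62.7%, 32.6% and 4.36% of all genes. At the lower filter the 3 libraries lay clear of the 3 wild-type libraries for 5, 5 and 0 of the 8 genes, beside 58.6%, 38% and 20.3% of all genes.

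**Figure D1:**
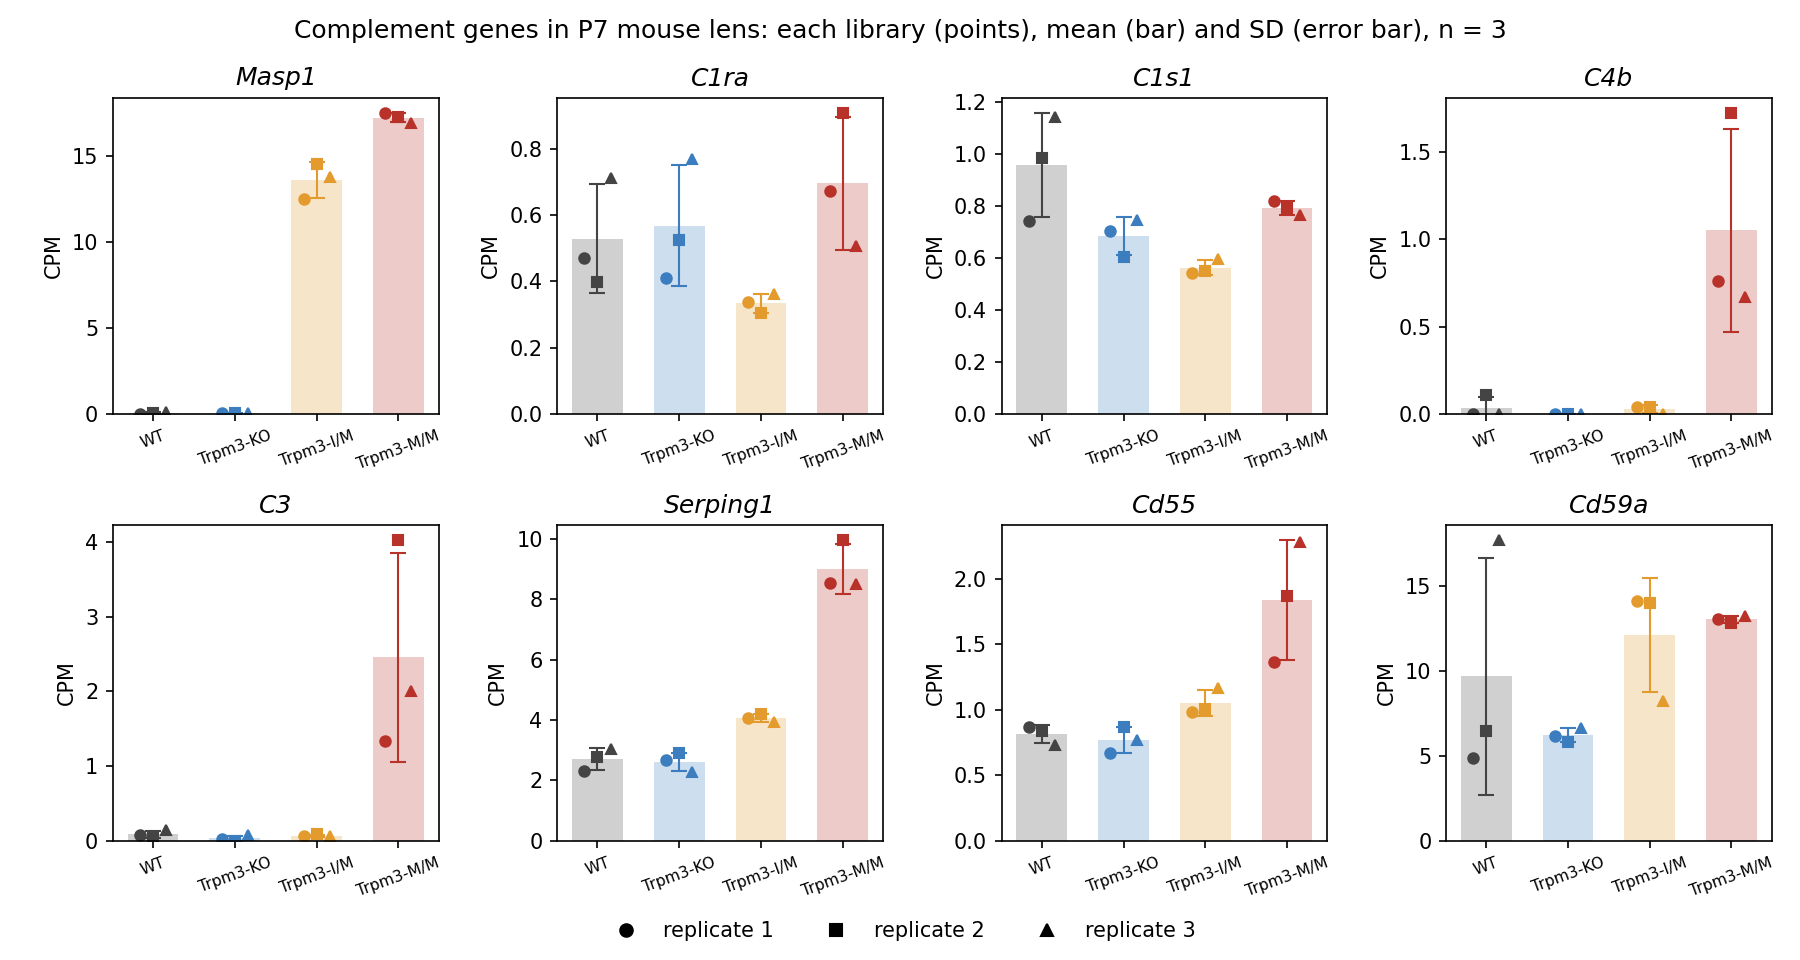
CPM (linear axes from 0) of the 8 complement genes in each library, by genotype. Points are libraries with the replicate number by shape, bars are means and error bars SD (n = 3). *Masp1* stands at 12.5 to 17.5 CPM in both mutant genotypes and below 0.1 elsewhere, *C3* and *C4b* rise above 0.5 CPM only in *Trpm3*-M/M, and 1 wild-type library has 17.7 CPM of *Cd59a*.

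*Masp1* (ENSMUSG00000022887, GRCm38 chr16:23449417-23520815, reverse strand, 22 annotated exons) encodes a serine protease that binds mannose-binding lectin and the ficolins and starts the lectin route. Its counts were 0, 2 and 4 in the wild-type libraries and 3, 1 and 1 in the *Trpm3*-KO libraries. It was nearly absent from lenses without the mutant allele. In *Trpm3*-I/M it reached 12.5, 14.6 and 13.8 CPM, and in *Trpm3*-M/M 17.5, 17.3 and 16.97 CPM. Every library with the mutant allele lay far above every library without it, and every homozygous library above every heterozygous one.

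The log2 fold change of *Masp1* was 8.68 (standard error 0.21, adjusted p = 4.99e-12, edgeR's quasi-likelihood test) in *Trpm3*-M/M and 8.34 (0.22, adjusted p = 3.16e-11) in *Trpm3*-I/M against wild-type. Since wild-type held 6 counts in all, the 95% intervals of the folds are wide, 298 to 562 and 233 to 448. Without wild-type replicate 3, which held 4 of these counts, the log2 fold changes were 9.60 and 9.26. Without *Trpm3*-I/M replicate 3 the second was 8.33, and that between the mutants 0.35 (adjusted p = 0.0171). *Trpm3*-M/M exceeded *Trpm3*-I/M by 1.27-fold (95% interval 1.11 to 1.44, adjusted p = 0.00552), below the fold change threshold. The gene also yields other splice products (MASP-3 and MAp44), and counts per gene do not tell them apart. *Masp2*, which encodes the other main protease of this route, shares no stretch of 50 bases with *Masp1*.

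*C1ra* (chr6:124512405-124523443, forward strand) and *C1s1* (chr6:124530345-124542359, reverse strand) encode the proteases that, held by C1q, start the classical route. *C1ra* had 0.472, 0.399 and 0.714 CPM in wild-type libraries and 0.411, 0.525 and 0.770 in those of *Trpm3*-KO, then 0.337, 0.304 and 0.360 in *Trpm3*-I/M libraries and 0.673, 0.909 and 0.508 in those of *Trpm3*-M/M. Its *Trpm3*-I/M libraries lay below all others, and the other 3 genotypes overlapped. Against wild-type neither mutant was called, with log2 fold changes of 0.37 (standard error 0.29, adjusted p = 0.310, edgeR) in *Trpm3*-M/M and -0.67 (0.32, adjusted p = 0.155) in *Trpm3*-I/M. Between the mutants it differed by 2.04-fold (95% interval 1.32 to 3.16, adjusted p = 0.0102), a call that was lost without *Trpm3*-M/M replicate 2 (log2 fold change 0.80, adjusted p = 0.0611) or without *Trpm3*-I/M replicate 2 (0.97, adjusted p = 0.0412). Without *Trpm3*-I/M replicate 3 the log2 fold change was -0.72 (adjusted p = 0.202) against wild-type and 1.09 (adjusted p = 0.0226) between the mutants.

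*C1s1* had 0.745, 0.985 and 1.14 CPM in wild-type libraries and 0.703, 0.603 and 0.747 in those of *Trpm3*-KO, then 0.542, 0.551 and 0.595 in *Trpm3*-I/M libraries and 0.821, 0.794 and 0.766 in those of *Trpm3*-M/M. All *Trpm3*-I/M libraries lay below all wild-type libraries, a log2 difference of -0.78 (standard error 0.19, adjusted p = 0.00831, edgeR), which misses the fold change threshold. Without *Trpm3*-I/M replicate 3 it was -0.82 (adjusted p = 0.0190). Summed with its copy *C1s2*, which shares part of its sequence, it had 0.865 to 1.53 CPM in wild-type and 0.814 to 0.894 in *Trpm3*-I/M, so the libraries overlapped. The sum had means of 1.18 in wild-type and 1.19 in *Trpm3*-M/M. The log2 fold change of *C1s1* alone against wild-type was -0.31 (0.18, adjusted p = 0.174, edgeR) in *Trpm3*-M/M and -0.49 (0.20, adjusted p = 0.231) in *Trpm3*-KO. The sign in *Trpm3*-M/M turned to 0.23 when libraries were scaled by total count alone, a scaling that moved the median of all tested genes there by 0.50.

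*C4b* (chr17:34728380-34743882, reverse strand) encodes complement component 4, which the proteases of the classical and lectin routes cut. Its counts were 0, 5 and 0 in wild-type, 0 in all 3 *Trpm3*-KO libraries (which allows up to 3 counts in each), and at most 3.35 in *Trpm3*-I/M. In *Trpm3*-M/M they were 60.95, 158.94 and 59.49, or 0.762, 1.72 and 0.671 CPM. Each *Trpm3*-M/M library exceeded each other library. The log2 fold change against wild-type was 4.86 (standard error 0.77, adjusted p = 1.59e-04, edgeR), a 29.0-fold difference with a 95% interval of 9.25 to 90.9. Without wild-type replicate 2, which held all 5 wild-type counts, it was 9.15, a fitted value against a group at 0 that depends on the prior count. Against *Trpm3*-KO, with 3 counts per library as the floor, the level was at least 18.9-fold higher.

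*C3* (chr17:57203970-57228136, reverse strand) encodes the component at which all routes meet. Its counts were 4, 2 and 7 in wild-type libraries and 1, 0 and 4 in those of *Trpm3*-KO, then 5, 7 and 4 in *Trpm3*-I/M libraries and 107, 371 and 178 in those of *Trpm3*-M/M. The *Trpm3*-M/M libraries stood at 1.34, 4.02 and 2.01 CPM, each at least 1 CPM above every other library. On the log2 scale it was higher by 4.76 (standard error 0.52, adjusted p = 2.43e-06, edgeR) against wild-type and 5.05 (0.50, adjusted p = 1.77e-06) against *Trpm3*-I/M, or 4.94 without *Trpm3*-I/M replicate 3. For *C3* and *C4b* in *Trpm3*-I/M or *Trpm3*-KO against wild-type, single counts decide the fold.

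*Serping1* (chr2:84765387-84775444, reverse strand) encodes the C1 inhibitor, which blocks C1r, C1s and the lectin-route proteases. It had 2.32, 2.77 and 3.05 CPM in wild-type libraries and 2.67, 2.89 and 2.29 in those of *Trpm3*-KO, then 4.07, 4.20 and 3.94 in *Trpm3*-I/M libraries and 8.55, 9.97 and 8.50 in those of *Trpm3*-M/M. Neither mutant overlapped wild-type, and the mutants did not overlap each other. On the log2 scale it was higher by 1.73 (standard error 0.11, adjusted p = 2.44e-08, edgeR) in *Trpm3*-M/M against wild-type and 1.14 (0.10, adjusted p = 1.42e-06) against *Trpm3*-I/M. In *Trpm3*-I/M against wild-type it was 0.59 (0.12, adjusted p = 0.00197), a 1.5-fold difference below the fold change threshold, and 0.61 without replicate 3, where that between the mutants was 1.12. In *Trpm3*-KO it was -0.05 (0.13, adjusted p = 0.880), with a 95% interval of the fold from 0.800 to 1.17.

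*Cd55* (chr1:130439027-130462744, reverse strand) encodes decay-accelerating factor, a membrane protein that takes apart the enzyme that cuts C3. It had 0.865, 0.840 and 0.733 CPM in wild-type libraries and 0.671, 0.868 and 0.770 in those of *Trpm3*-KO, then 0.984, 1.01 and 1.17 in *Trpm3*-I/M libraries and 1.36, 1.87 and 2.28 in those of *Trpm3*-M/M. Wild-type and *Trpm3*-KO overlapped, and both mutants lay above them. The log2 fold change against wild-type was 1.14 (standard error 0.19, adjusted p = 1.53e-04, edgeR) in *Trpm3*-M/M and 0.37 (0.20, adjusted p = 0.215) in *Trpm3*-I/M, or 0.29 (adjusted p = 0.426) without replicate 3 of the latter. The first lies close to the threshold, and without *Trpm3*-M/M replicate 3 it was 0.97 (adjusted p = 8.11e-04), just under a fold change of 2.

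*Cd59a* (chr2:104095801-104115354, forward strand) encodes the main mouse CD59, which keeps the membrane attack complex from closing on a cell. Its wild-type libraries disagreed. They had 4.88, 6.47 and 17.7 CPM, against 6.17, 5.81 and 6.63 in *Trpm3*-KO, 14.1, 14.0 and 8.22 in *Trpm3*-I/M and 13.0, 12.8 and 13.2 in *Trpm3*-M/M. Wild-type replicate 3 exceeded all other 11 libraries, and *Trpm3*-I/M replicate 3 lay between the other *Trpm3*-I/M libraries and *Trpm3*-KO.

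With all libraries *Cd59a* was not called in *Trpm3*-M/M (log2 fold change 0.43, standard error 0.34, adjusted p = 0.295, edgeR), *Trpm3*-I/M (0.32, 0.34, adjusted p = 0.514) or *Trpm3*-KO (-0.65, 0.37, adjusted p = 0.394) against wild-type. The 95% intervals of the folds, 0.805 to 2.24, 0.747 to 2.10 and 0.367 to 1.11, leave room for a change of 2-fold in each. Without wild-type replicate 3 the call appeared in both mutants, with log2 fold changes of 1.20 (adjusted p = 2.70e-04) and 1.10 (adjusted p = 0.00171), and the *Trpm3*-KO value became 0.13. Without *Trpm3*-I/M replicate 3 the *Trpm3*-I/M value was 0.54 (adjusted p = 0.300). Against *Trpm3*-KO, *Trpm3*-M/M was called higher by 2.10-fold (95% interval 1.23 to 3.57, adjusted p = 0.0173) with all libraries, and without *Trpm3*-KO replicate 2 it was not (log2 fold change 1.02, adjusted p = 0.0537).

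**Figure D2:**
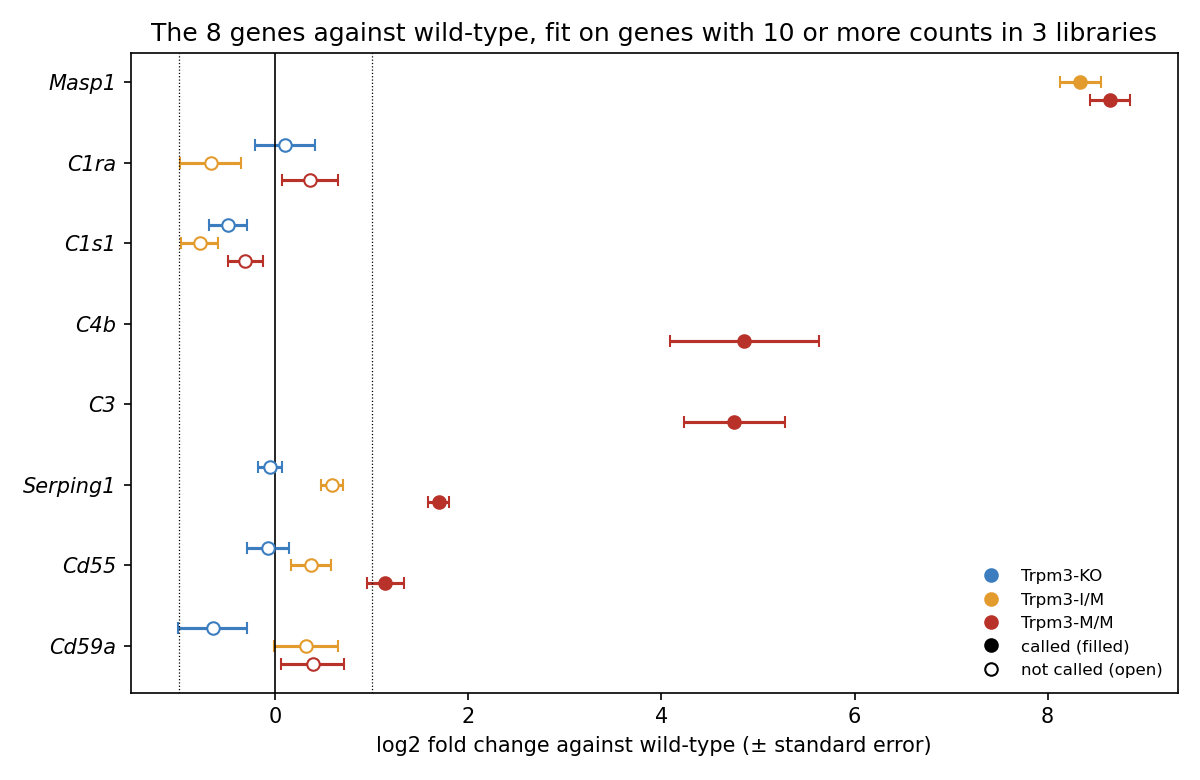
Log2 fold change against wild-type (points, with standard error bars) of the 8 genes in *Trpm3*-KO and both knock-in genotypes, from the fit on genes with at least 10 counts in at least 3 libraries. Filled points were called, dotted lines mark a fold change of 2, and 5 comparisons in which neither group averaged 10 counts per library (*C3* and *C4b* in 2 genotypes, *Masp1* in *Trpm3*-KO) are left out. *Masp1* is filled in both mutants, and *C3*, *C4b*, *Serping1* and *Cd55* in *Trpm3*-M/M.

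Of the 3 genes past the CPM filter, 1 (*Serping1*) was called higher in homozygous than in heterozygous mutant lenses, where 3.67% of all genes were called higher, and 2 reached the adjusted p alone, beside 51.3%. At the lower filter *C3*, *C4b*, *Serping1* and *C1ra*, 4 of the 8, were called higher, where 9.02% of all genes were. *Cd55* differed by 1.71-fold (adjusted p = 0.00272, edgeR), below the fold change threshold, and by 0.85 on the log2 scale without *Trpm3*-I/M replicate 3. The limit set by the filters holds for these counts and medians too. The median log2 fold change of the 8 genes there was 0.90, beside -0.00162 over all genes tested. Against wild-type the median was 1.42 for *Trpm3*-M/M and 0.01 for *Trpm3*-I/M, beside medians of -0.01 and -0.00611 over all genes tested. Comparisons against wild-type share the wild-type libraries.

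Against *Trpm3*-KO, *Trpm3*-M/M was called higher in 3 of 3 genes past the CPM filter and 6 of 8 at the lower filter, where 6.85% and 13.1% of all genes were called higher. *Trpm3*-I/M was called higher for *Masp1* alone at both filters, where 2.93% and 5.33% of all genes were, and without *Trpm3*-I/M replicate 3 also for *Cd59a* (log2 fold change 1.18, adjusted p = 0.0275, edgeR). Without a fold change threshold 3 of 3 genes past the CPM filter had an adjusted p of at most 0.05 (edgeR) in either mutant, beside 64.8% and 36% of all genes. Since *Masp1*, *Serping1*, *C3* and *C4b* passed a filter only through groups in which they were high, the counts against *Trpm3*-KO are a description too. No excess is read from them.

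Levels were compared between the 8 genes as CPM per kilobase of annotated exon. In wild-type *Cd59a* led with 5.35 ± 3.86 (SD, n = 3), then came *Serping1* with 1.17 ± 0.159, *C1s1* with 0.306 ± 0.0643, *C1ra* with 0.177 ± 0.0552 and *Cd55* with 0.168 ± 0.0144. The last 3 were not separated beyond their spread from neighbour to neighbour, and *C3*, *C4b* and *Masp1* followed below 0.02 with overlapping libraries. *Cd59a* and *Serping1*, both inhibitors, were first and second in all 4 genotypes. In *Trpm3*-M/M the order was *Cd59a* with 7.19 ± 0.107, *Serping1* with 3.87 ± 0.358, *Masp1* with 1.76 ± 0.0273, *C3* with 0.478 ± 0.272, *Cd55* with 0.378 ± 0.0946, *C1s1* with 0.254 ± 0.00877, *C1ra* with 0.234 ± 0.0676 and *C4b* with 0.185 ± 0.102. There the first 3 were each separate from the next, *C3* overlapped *Cd55*, and *C1s1*, *C1ra* and *C4b* overlapped in turn.

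The rest of the pathway was read from a list of 46 further complement genes, of which 24 passed the lower filter. In *Trpm3*-M/M against wild-type 13 of these were called higher and 0 lower by edgeR, beside 12.4% of all genes called higher, and 15 had an unadjusted p below 0.05. Of these 13 genes, 11 reached 10 counts in 3 libraries only through *Trpm3*-M/M, so the filter nearly fixed their call and the count is a description. The other 2 were *Cfp* and *Thbd*, out of 11 genes that passed without *Trpm3*-M/M. The share of all genes called among those that passed in this way was not computed, so no excess is read from it. In *Trpm3*-I/M, 1 of the 24 was called higher and 1 lower, beside 6.22% of all genes called. In *Trpm3*-KO 0 of 24 were called by edgeR, beside 1.02%, with 2 (*Cfp* and *C1qc*) at an unadjusted p below 0.05. Their median log2 fold change in *Trpm3*-M/M was 1.93, or 1.79 with *Itgax*, which was at 0 in wild-type, set to its lower bound against 3 counts per library, beside -0.01 over all genes tested. The same 12.4% is the background of each count by step below.

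In the classical route, 5 of 9 tested genes were called higher in *Trpm3*-M/M, namely *C4b*, *C2* and the 3 chains of C1q, the recognition part of the first component. All 5 passed the filter only through *Trpm3*-M/M. *C1qa* had 1.28, 2.58 and 1.86 CPM in *Trpm3*-M/M and at most 0.0851 CPM in any other library. *C1qb* had 1.15, 3.08 and 1.44 CPM and *C1qc* 1.44, 2.50 and 1.87 CPM in *Trpm3*-M/M. *C2*, whose product is cut beside C4, rose from 0.103 to 0.655 CPM on average (log2 fold change 2.64, standard error 0.51, adjusted p = 4.84e-04, edgeR). The proteases *C1ra* and *C1s1*, described above, and the copies *C1s2* and *C4a* were the 4 tested classical genes that were not called.

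In the lectin route 3 of 8 genes were tested. Beside *Masp1*, *Fcna* (ficolin A, which macrophages are known to make) was called higher in *Trpm3*-M/M, at 0.150 to 0.672 CPM against 1 count over the 3 wild-type libraries. *Colec11*, a collectin that recruits the same proteases, had 1.49 ± 0.462 CPM in wild-type and 1.51 ± 0.228 CPM in *Trpm3*-M/M (SD, n = 3). The remaining recognition genes of the list and *Masp2* did not reach 10 counts in 3 libraries.

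In the alternative route, properdin (*Cfp*) was called higher in *Trpm3*-M/M, from 0.431 ± 0.135 to 1.02 ± 0.261 CPM (log2 fold change 1.22, standard error 0.27, adjusted p = 0.00166, edgeR). *Trpm3*-KO, at 0.740 ± 0.0750 CPM, also lay above every wild-type library, without a call (0.78, 0.29, adjusted p = 0.195, edgeR). *Trpm3*-M/M against *Trpm3*-KO was not called either (0.44, 0.25, adjusted p = 0.153, edgeR). Factor B (*Cfb*), a protease of this route, was at 0.173 ± 0.126 and 0.290 ± 0.0403 CPM and not called. *Cfd*, also listed for this route, had 0 counts in all 12 libraries. Of 7 genes for the terminal pore, *C8g* alone was tested and it was not called. *Hc*, the gene for C5, had 0 counts in all 12 libraries, which allows up to 3 in each, and *C9* had 1 count in wild-type and 1 in *Trpm3*-M/M.

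The list of 10 soluble regulators also held *Thbd*, whose product, thrombomodulin, is a membrane protein of endothelium. Of this list 5 were tested, and *Serping1*, *Vtn* and *Thbd* were called higher in *Trpm3*-M/M. Thrombomodulin, which speeds the inactivation of C3b, was the one called in both mutants. It had 0.561 ± 0.147 CPM in wild-type libraries and 0.778 ± 0.0475 in those of *Trpm3*-KO, then 33.2 ± 1.85 in *Trpm3*-I/M libraries and 35.8 ± 5.40 in those of *Trpm3*-M/M, with log2 fold changes of 5.88 (0.15, adjusted p = 3.16e-11) and 5.98 (0.15, adjusted p = 7.02e-12) in the CPM-filter fit of edgeR. Clusterin (*Clu*), the most abundant of the list, had 802.3 ± 67.4 CPM in wild-type, 1066 ± 87.2 in heterozygous *Trpm3*-I/M and 1040 ± 94.7 in homozygous *Trpm3*-M/M, which are differences below the fold change threshold.

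Among 7 membrane regulators 6 were tested, and *Cd55* and *Csmd1* were called higher in *Trpm3*-M/M. *Cr1l*, the rodent regulator Crry, had 6.58 ± 0.222 CPM in wild-type and 7.92 ± 0.702 in *Trpm3*-M/M (log2 fold change 0.27, standard error 0.08, adjusted p = 0.00777, edgeR), below the fold change threshold. *Cd46* had 0.345 and 0.385 CPM on average and was not called. Of 8 complement receptors 5 were tested, and *C3ar1*, *Itgam*, *Itgax* and *Itgb2*, which are carried mainly by myeloid cells, were called higher in *Trpm3*-M/M, having passed the filter only through it. *Itgam*, a chain of complement receptor 3, had 1 count over the wild-type libraries and 0.444 to 0.475 CPM in *Trpm3*-M/M. *Cr2* was the gene called lower in *Trpm3*-I/M, on 18 counts over the wild-type libraries and 6 over the *Trpm3*-I/M libraries.

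**Figure D3:**
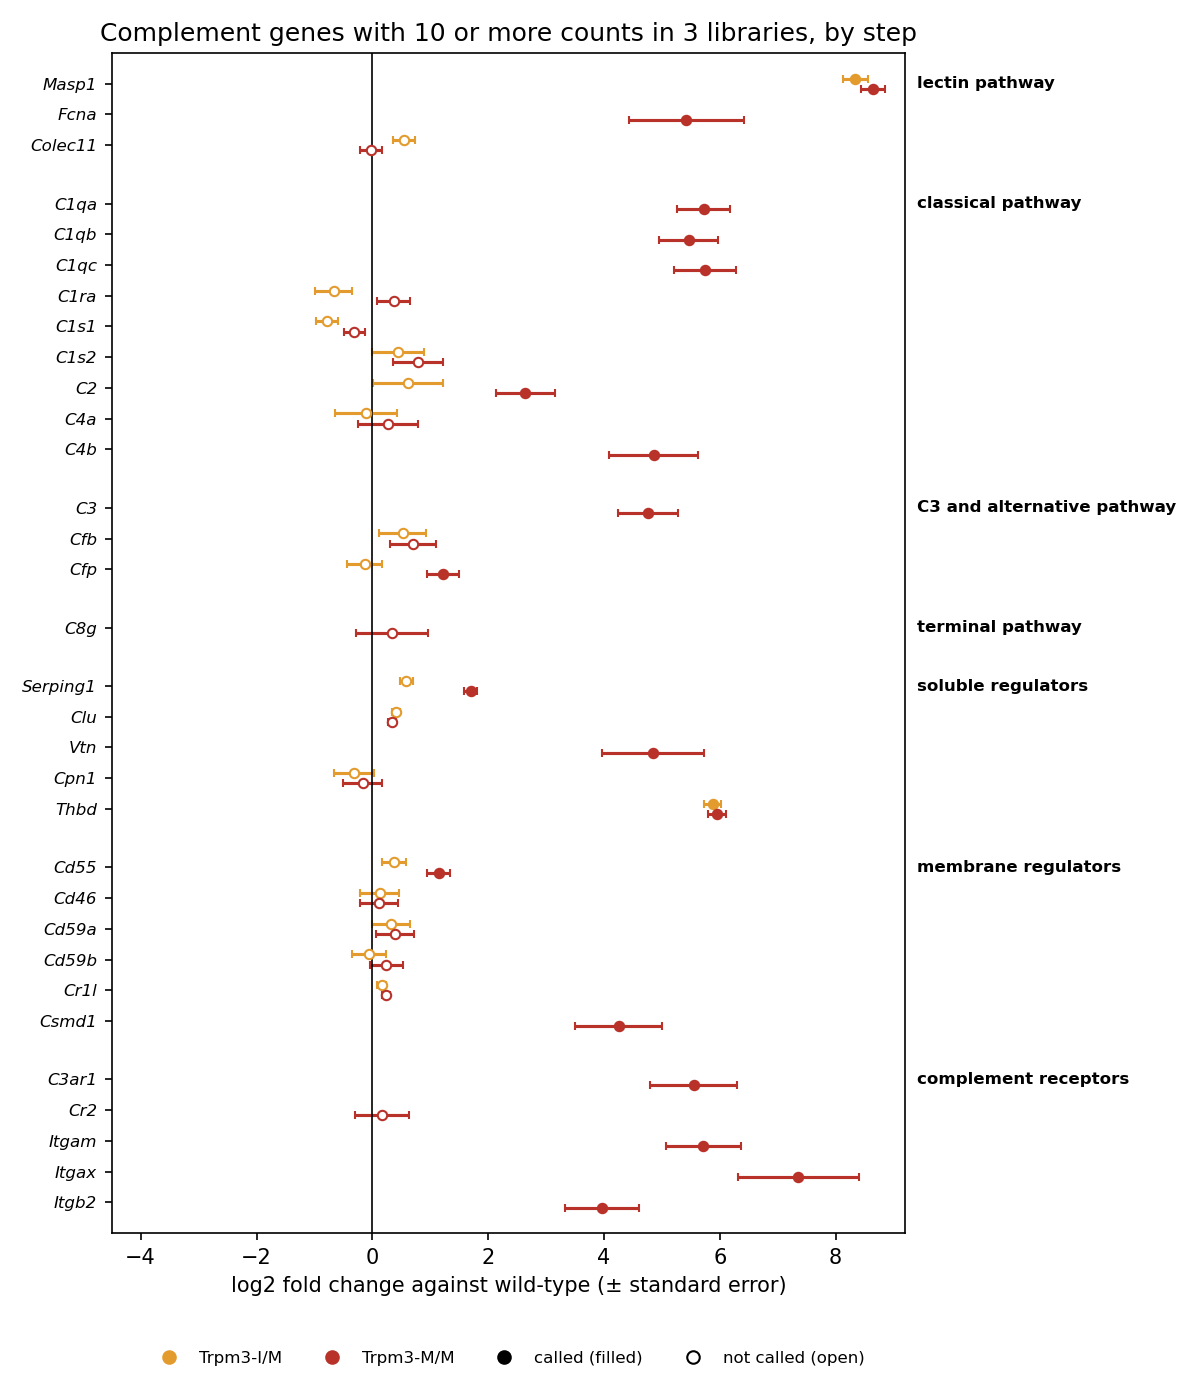
Log2 fold change against wild-type (points, with standard error bars) of the 32 complement genes with at least 10 counts in at least 3 libraries, grouped by step of the pathway (*Thbd* encodes a membrane protein). Filled points were called, and 14 *Trpm3*-I/M comparisons in which neither group averaged 10 counts per library are left out. In *Trpm3*-M/M 18 of 32 are filled, all above 0, and in *Trpm3*-I/M *Masp1* and *Thbd* are filled.

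The *Trpm3*-M/M libraries differed among themselves in *C3* and *C4b* far more than in *Masp1*. Replicate 2 had 2.40 times the mean of the other 2 for *C3* and 2.40 times for *C4b*, 1.54 times for *C1ra* and 1.17 times for *Serping1*. For *C1qb* it had 2.37 times and for *C2* 1.94 times. The summed macrophage markers were also highest there, at 10.7, 20.3 and 11.9 CPM, and so was the summed pericyte and fibroblast list, at 314.5, 452.0 and 379.3 CPM, with *Col1a1* at 35.0, 80.2 and 47.7 CPM. The summed cornea markers peaked there too, at 4.15, 8.88 and 5.37 CPM, which is 1.87 times the mean of the other 2, beside 1.30 times for the pericyte and fibroblast list. The ciliary non-pigmented epithelium, red blood cell and pigmented cell lists were also highest in replicate 2, at 1.18, 1.14 and 1.08 times. In *Masp1*, *C1s1* and *Cd59a* the highest *Trpm3*-M/M library was at most 1.07 times the lowest. The summed vascular endothelium markers were highest in replicate 3, at 81.9, 81.6 and 91.9 CPM. So were the photoreceptor list, at 16.9, 21.7 and 24.5 CPM, and the other neural retina list, at 29.0, 29.0 and 29.4 CPM. *Cd55* was highest there too, at 1.36, 1.87 and 2.28 CPM. All of these are 3 libraries, so the likeness of their order is a description.

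**Figure D4:**
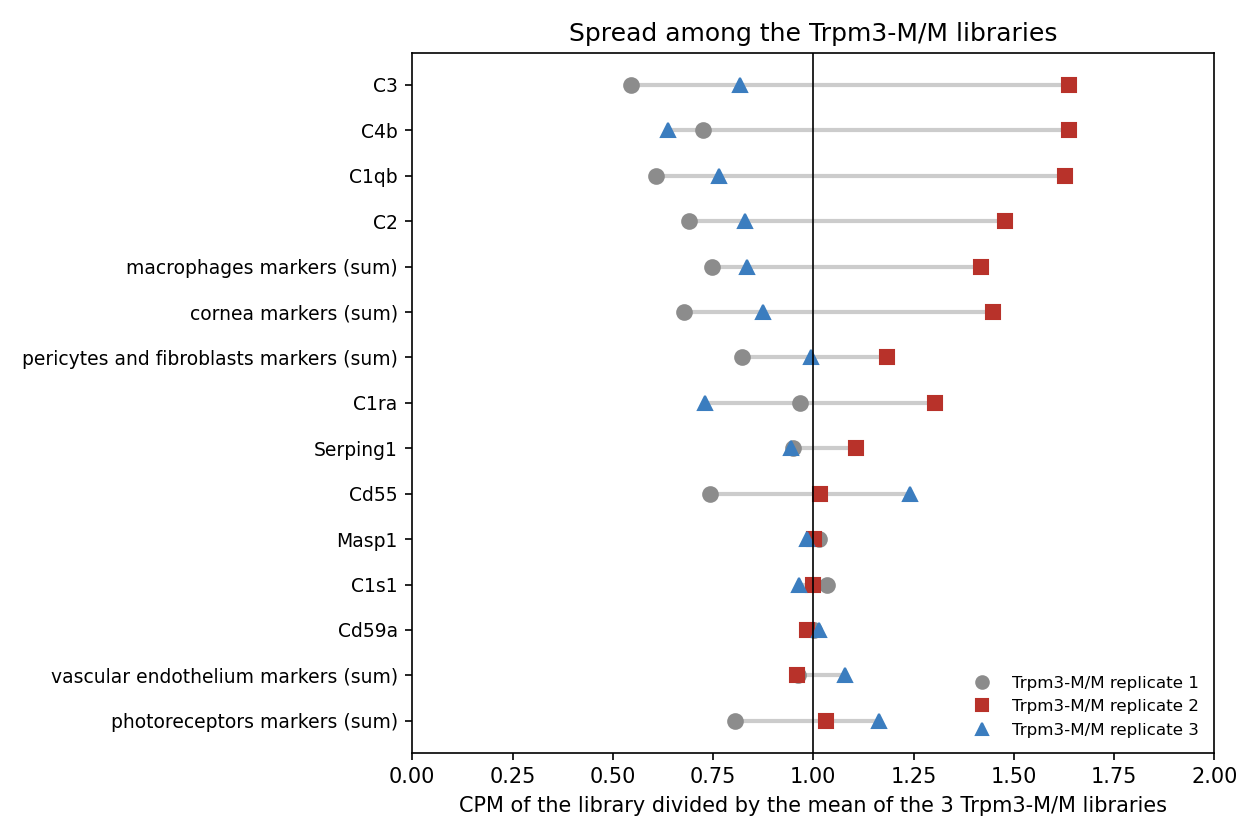
CPM of each *Trpm3*-M/M library divided by the mean of the 3 *Trpm3*-M/M libraries, for the 8 genes, 2 other complement genes and 5 summed marker lists. Points are libraries, with shape and colour giving the replicate. Replicate 2 lies highest for *C3*, *C4b*, *C1qb*, *C2*, *C1ra*, *Serping1* and the macrophage, cornea, and pericyte and fibroblast lists, and *Masp1*, *C1s1* and *Cd59a* hold together near 1.

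Without replicate 2 the *Trpm3*-M/M mean was 1.67 CPM for *C3*, 19.4 times the wild-type mean instead of 28.4 times, and 0.717 CPM for *C4b*, 20.5 instead of 30.1 times. With all 3 libraries, macrophage markers were called higher in *Trpm3*-M/M in 11 of 11 tested genes and in *Trpm3*-I/M in 1 of 11, beside 12.4% and 4.38% of all genes called higher. Of these 11 markers, 7 passed the filter only through *Trpm3*-M/M, so this count too is a description. Vascular endothelium markers were called higher in 11 of 12 in either mutant. Their sum was 14.2 to 16.9 CPM in wild-type lenses, 28.2 to 38.9 in heterozygous and 81.6 to 91.9 in homozygous mutant lenses. Mean *Masp1* over the same genotypes was 0.0404, 13.6 and 17.3 CPM, and mean *Thbd* 0.561, 33.2 and 35.8 CPM. A link between these levels was not tested. The pericyte and fibroblast list had 8 of 11 higher in *Trpm3*-M/M, of which 3 passed the filter only through *Trpm3*-M/M, and 5 of 11 in *Trpm3*-I/M. *Pdgfra* was the gene of that list called lower in *Trpm3*-M/M, from 79.4 to 38.97 CPM on average.

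Several of the 8 genes have copies that share part of their sequence, so part of their counts is uncertain. Of the stretches of 50 bases in the transcripts of *C1ra*, 48.0% also occur in *C1rb*, and 34.6% of those of *C4b* occur in *C4a*. For *C1s1* and *C1s2* the share was 21.8%, for *Cd55* and *Cd55b* 8.0% and for *Cd59a* and *Cd59b* 3.87%. *C4a* exceeded *C4b* on average outside *Trpm3*-M/M. It was at 0.0420 to 0.256 CPM in wild-type and 0.138 to 0.261 CPM in *Trpm3*-M/M, and *C4b* and *C4a* summed to 0.187 ± 0.0596 CPM in wild-type and 1.24 ± 0.646 CPM in *Trpm3*-M/M (SD, n = 3) without overlap. *C1s2* was at 0.121 to 0.382 CPM in wild-type and 0.193 to 0.542 in *Trpm3*-M/M. *C1rb* was listed at 0 in all libraries but those of *Trpm3*-M/M, where its highest value was 0.0143 CPM.

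The genes whose pattern over the 12 libraries was most like that of a gene past the CPM filter were found by Pearson's r on log2 CPM (prior count 2), as a description over libraries that share genotypes. For *Masp1* these were *Pgrmc1* (r = 0.992), *Kcnk3* (0.991) and *Htra1* (0.990), and *Kcnk3* went from 1.58 CPM in wild-type to 29.8 in heterozygous and 24.8 in homozygous mutant lenses on average. With a prior count of 0.5, *Lama4* (0.987) took the place of *Kcnk3*. For *Serping1* they were *Fmnl2* (0.993), *Atp6ap2* (0.991) and *Pitpna* (0.990), and *Fmnl2* went from 16.1 to 22.1 and 37.3 CPM. For *Cd59a*, whose wild-type libraries disagreed, they were *Smu1* (0.942), *Dnajc10* (0.922) and *Eif4h* (0.906), and *Smu1* lay between 22.6 and 24.0 CPM on average in all 4 genotypes.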

How the data were processed

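The authors used DRAGEN and the annotation of Ensembl release 101 for alignment and counting, and deposited the estimated counts of each gene without normalization. Whether counting used strand is not given in the sources used here. The deposited second table of the authors' comparisons (CPM, log2 fold changes, p-values) was not used, apart from its counts, which equaled those of the full table in every value. The counts (88.4% whole) were rounded, scaled with TMM factors and fitted in edgeR 4.0.16 under R 4.3.3 with all 12 libraries and genotype as factor, and CPM uses the TMM-scaled totals. The design had assumed whole counts. Standard errors come from the fold change and its F statistic, and intervals from the t distribution. The scaling places the bulk of genes at equal levels. Named genes were the 8 members, their copies, complement genes past the CPM filter, *Trpm3*, the 3 genes most alike to each tested member and leading markers, and *Xist*, the Y-linked genes and genes of single steps were added after their values were seen. A complement regulator of the lists is not reported here. The 8 genes and all lists were chosen with earlier results of these data known. Alternatives were other scalings, filters, call rules and libraries, and DESeq2 1.42.0. The fits were tested on simulated data. Counts at 0 allow up to 3 counts, for counting error only. Plots were made in matplotlib 3.10.9. Positions refer to GRCm38 (GENCODE), and upstream sequences RefSeq, GRCm38.p6.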

Additional observations from a re-analysis of the deposited data

How the results depend on the processing

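Of 992 alternative values of the log2 fold changes of the 8 genes in 6 comparisons, 959 kept direction and side of the threshold, 9 fell short of it, 11 passed it and 13 changed sign. Depth limits *C3* and *C4b*, whose levels outside *Trpm3*-M/M rest on single counts, and leaving out any *Trpm3*-M/M library removed both from the lower filter, so no such fit was had. Leaving out 1 library at a time turned the sign of 9 log2 fold changes. In *Trpm3*-KO against wild-type these ran from -1.06 to 0.56 for *Masp1*, -0.15 to 0.044 for *Serping1*, -0.18 to 0.38 for *C1ra*, -0.17 to 0.0086 for *Cd55* and -0.97 to 0.13 for *Cd59a*. In *Trpm3*-I/M against wild-type they ran from -0.60 to 0.21 for *C3*, -0.91 to 3.96 for *C4b* and -0.00314 to 1.10 for *Cd59a*, and in *Trpm3*-M/M against *Trpm3*-I/M from -0.11 to 0.22 for *Cd59a*. Of these ends, the 1.10 of *Cd59a* without wild-type replicate 3 was called. *C1s1* in *Trpm3*-M/M against wild-type turned to 0.23 at library size only. The cause was not tested.

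Counts of the 8 genes called moved mainly with the filter, as more genes were tested. In *Trpm3*-M/M against wild-type, *Trpm3*-I/M and *Trpm3*-KO they were 2, 1 and 3, and became 5, 4 and 6 without a filter or with at least 10 counts in 3 libraries, and 4, 2 and 5 with a CPM of at least 1. Without a fold change threshold they were 2 in *Trpm3*-I/M against wild-type, 2 in *Trpm3*-M/M against *Trpm3*-I/M and 3 in *Trpm3*-I/M against *Trpm3*-KO. With glmTreat the count in *Trpm3*-M/M against *Trpm3*-I/M was 0, and with library size only that in *Trpm3*-I/M against *Trpm3*-KO was 2. The fit without a filter gave every gene the same spread, and its p-values are not relied on.

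Counts of complement genes called were 3 in *Trpm3*-M/M against wild-type, 2 in *Trpm3*-I/M against wild-type, 1 in *Trpm3*-M/M against *Trpm3*-I/M, 4 in *Trpm3*-M/M against *Trpm3*-KO and 2 in *Trpm3*-I/M against *Trpm3*-KO. Without a filter they were 20, 4, 19, 20 and 3. With at least 10 counts in 3 libraries those of *Trpm3*-M/M against wild-type, *Trpm3*-I/M and *Trpm3*-KO were 18, 17 and 18, and with a CPM of at least 1 they were 9, 6 and 9. Without a fold change threshold they were 5 and 4 in *Trpm3*-M/M and *Trpm3*-I/M against wild-type, 2 between the mutants and 5 in *Trpm3*-I/M against *Trpm3*-KO. With glmTreat the count between the mutants was 0. All genes called in *Trpm3*-M/M against wild-type numbered 804, and 1354 with library size only, 1634 with a CPM of at least 1, 2853 with at least 10 counts and 5637 without a fold change threshold. In *Trpm3*-I/M they numbered 299, with 177 under glmTreat and 2929 without a fold change threshold, and in *Trpm3*-KO 51, with 19 and 392.

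Leaving out 1 library gave 1 to 3 of the 8 genes called in *Trpm3*-M/M against wild-type, 1 to 2 in *Trpm3*-I/M, 0 in *Trpm3*-KO, 0 to 1 in *Trpm3*-M/M against *Trpm3*-I/M, 2 to 3 in *Trpm3*-M/M against *Trpm3*-KO and 1 to 2 in *Trpm3*-I/M against *Trpm3*-KO. Without any *Trpm3*-M/M library *Serping1* missed the CPM filter, and without wild-type replicate 3 *Cd59a* was called. For complement genes the ranges were 2 to 4, 2 to 3, 0, 0 to 1, 3 to 4 and 2 to 3.

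The replicate numbers did not pair the libraries, since the 18 same-numbered pairs correlated from -0.26 to 0.15 (median -0.06) and 0 libraries were closest to their own number. With the replicate number as a block the counts of the 8 genes called were 2, 1 and 0 in *Trpm3*-M/M, *Trpm3*-I/M and *Trpm3*-KO against wild-type, and no call of these genes changed.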

Other observations

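Wild-type replicate 3, which stood apart in *Cd59a*, also stood apart in a neighbouring gene, looked for after that value was seen. *Cd44*, which encodes a hyaluronan receptor, lies at chr2:102811141-102901665 of GRCm38, on the same chromosome as *Cd59a*. It had 40.3, 36.9 and 8.84 CPM in the wild-type libraries, 33.4, 35.9 and 33.7 in *Trpm3*-KO, 57.87, 56.96 and 56.02 in *Trpm3*-I/M and 91.6, 123.9 and 117.3 in *Trpm3*-M/M. In this library 1 of the 23 tested genes within 2 Mb of *Cd59a* differed at least 2-fold from both other wild-type libraries, beside 37 of all 8984 genes tested (0.412%). *Trpm3*-I/M replicate 3, the other library that stood apart in *Cd59a*, had 0 of 23 such genes beside 5 of 8984. No test was made of these values.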
